A study of Mus musculus with 12 samples.

Results

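The 10 genes described here encode parts of the elastic fibre: elastin (Eln), the fibrillins Fbn1 and Fbn2, the fibulins Fbln1, Fbln2, Fbln5, Efemp1 and Efemp2, and the microfibril-associated proteins Mfap4 and Mfap5. They were chosen by name, as members of this family, with earlier results of these data known. All 10 were among the 33246 genes of the count table and among the 14542 genes that passed the expression filter. RNA was sequenced from primary fibroblasts of the ear of 1-month-old C57BL/6 mice, male and female, that had been expanded to passage 2 in serum-containing medium and then kept for 48 h on alginate gels. The gels carried an adhesion peptide and had a stiffness of 2 or 20 kPa. They were either elastic, with covalent crosslinks, or viscoelastic, with ionic crosslinks that relax slowly under stress. This gave 4 groups of 3 biological replicates: 2-kPa elastic, 20-kPa elastic, 2-kPa viscoelastic and 20-kPa viscoelastic gels. The study also used a Tau-EGFP reporter strain, and the labels give no animal, strain or sex per sample, so the p-values measure the spread between these samples, which may not be the spread between animals. The groups allow viscoelastic and elastic gels to be compared at each stiffness, and soft and stiff gels of each kind.

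An elastic fibre has a core of crosslinked elastin, secreted as tropoelastin, on a scaffold of microfibrils made of fibrillin. Fibulins bridge elastin, the microfibrils and the lysyl oxidases that crosslink elastin, and microfibril-associated proteins sit along the fibrillin scaffold. The fibres let skin, vessels, lung and the elastic cartilage of the ear recoil after stretch, and the fibrillin scaffold also holds latent TGF-beta through the latent TGF-beta binding proteins.

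The samples held 36626221 to 43612804 counts each. edgeR's common biological coefficient of variation, the spread among replicates that counting does not account for, was 7.50%. Between 0.615% and 0.758% of the counts of a sample fell on the 10 genes. All 8 fibroblast markers were abundant, with at least 6548 counts (Thy1) in every sample. Of 5 cartilage markers, 4 were also abundant in every sample: Col2a1 (98405 to 148315 counts), Acan (36272 to 65773), Cnmd (22529 to 54431) and Sox9 (14903 to 22284), whereas Matn1 had 0 to 8 counts. The cultures labelled as fibroblasts thus held RNA of cartilage genes throughout. The summed cartilage markers lay at 4887 to 6331 CPM (read counts scaled to a common library size) on 2-kPa elastic, 4439 to 4537 on 20-kPa elastic, 4832 to 6229 on 2-kPa viscoelastic and 4910 to 6309 on 20-kPa viscoelastic gels. The pericyte marker Cspg4 had 11550 to 22067 counts, while Myh11, Des and Rgs5 had 149 or fewer. Among the keratinocyte, endothelial, leukocyte, melanocyte, Schwann cell and adipocyte markers the highest were Trp63 with up to 859, Fabp4 with up to 453 and Cd68 with up to 293 counts. The defining genes Krt14, Emcn, Adgre1, Dct, Tyr and Adipoq had at most 7, 7, 8, 1, 0 and 6 counts. In such bulk samples, fewer cells of a type and less RNA per cell cannot be told apart.

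For levels, counts were scaled to CPM with TMM factors and divided by the length of the gene's exons. Fbln2 stood highest with a mean of 387 CPM per kb over the 12 samples, followed by Efemp1 with 250.3, Fbln5 with 189.7, Efemp2 with 142, Fbn1 with 86.2, Eln with 54.9, Fbn2 with 44.8, Fbln1 with 12.8, Mfap5 with 4.24 and Mfap4 with 2.55 CPM per kb. The top 7 genes stood above 94.2% of the tested genes with a known length, Fbln1 above 76.4%, Mfap5 above 48.4% and Mfap4 above 36.7%. Ranges of neighbours in this order overlapped, except between Efemp2 and Fbn1, between Fbn2 and Fbln1 and between Fbln1 and Mfap5. Within samples the order was steadier: Fbln2 exceeded Efemp1 in 11 of 12 samples, Eln exceeded Fbn2 in 9 and Mfap5 exceeded Mfap4 in 10, and each other gene exceeded the next in all 12. The order of Eln and Fbn1 depended on the length used. Per kb of the longest coding transcript, a measure chosen after seeing the data, Eln had 115 CPM per kb and Fbn1 87.3, because the exon union of Eln (8098 bp) is longer than that transcript (3853 bp).

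**Figure D1:**
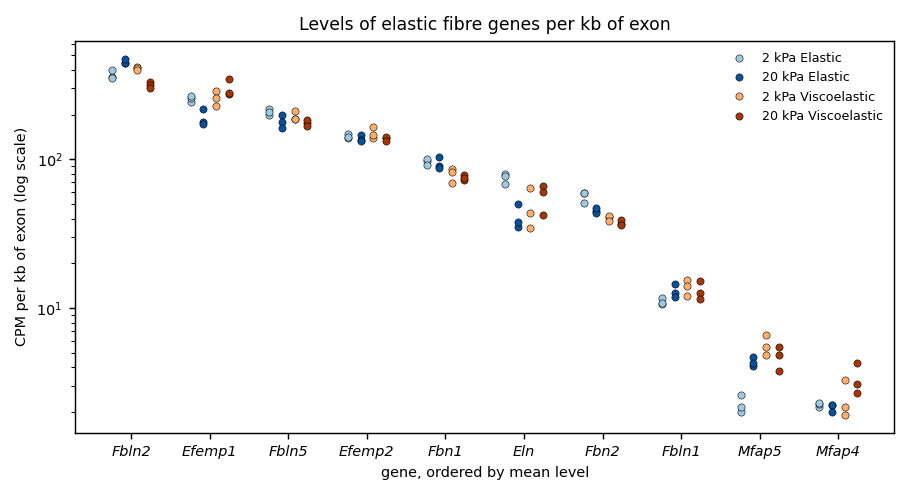
Level of each gene in CPM per kb of exon on a log axis, 1 point per sample, coloured by gel group, with genes ordered by their mean. The means fall from 387 for Fbln2 to 2.55 for Mfap4, and the points of Eln, which overlap those of Fbn1 and Fbn2, are the most scattered of the 7 highest genes.

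In each comparison of groups, a gene was called where its edgeR quasi-likelihood test had a Benjamini-Hochberg adjusted p under 0.05 over all 14542 tested genes. Between viscoelastic and elastic gels at 2 kPa, 5 of the 10 genes were called (Fbln1 and Mfap5 higher, Eln, Fbn1 and Fbn2 lower on viscoelastic gels), against 19.9% of all tested genes (8.77% higher and 11.1% lower). At 20 kPa, 5 were called (Efemp1 and Mfap4 higher, Fbn1, Fbn2 and Fbln2 lower), against 33.5% (17.4% higher and 16.1% lower). With stiffness on elastic gels, 5 were called (Fbln2 and Mfap5 higher, Eln, Fbn2 and Efemp1 lower at 20 kPa), against 14.0% (6.81% higher and 7.14% lower). With stiffness on viscoelastic gels, 1 was called, Fbln2, which was lower at 20 kPa, against 2.28% (1.58% higher and 0.695% lower). When the viscoelastic effect was averaged over both stiffnesses, 6 were called (Efemp1, Mfap4 and Mfap5 higher, Fbn1, Fbn2 and Fbln2 lower), against 40.0% (19.6% higher and 20.4% lower). For the interaction, in which the effect of stiffness on elastic gels is subtracted from its effect on viscoelastic ones, 4 were called (Eln and Efemp1 positive, Fbln2 and Mfap5 negative), against 7.56% (4.45% positive and 3.12% negative). The family did not move in 1 direction: the median log2 fold change of the 10 genes was 0.04 and 0.01 for viscoelasticity at 2 and 20 kPa and −0.06 and −0.10 for stiffness on elastic and viscoelastic gels. Over all tested genes these medians were −7.47e-05, 0.02, −0.01 and 0.01. The comparisons share groups, so their calls are not independent of each other.

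**Figure D2:**
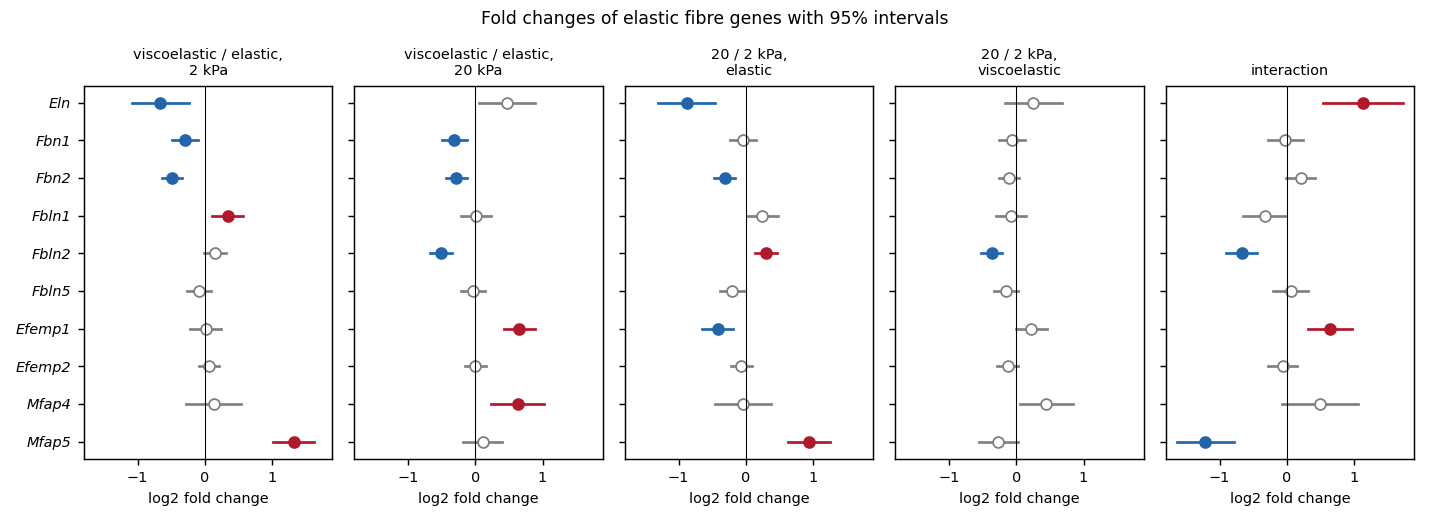
Log2 fold change (point) and its 95% interval (line) of each gene in the 4 comparisons of groups and the interaction, with filled red and blue points for genes called higher and lower and open grey points for the others. In the interaction column Eln and Efemp1 are filled to the right of 0 and Fbln2 and Mfap5 to the left, and in the 2 leftmost columns Fbn1 and Fbn2 are filled to the left.

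Eln (ENSMUSG00000029675.12, chr5:134702593-134747323, minus strand, mm10) encodes elastin, the core of the fibre. Eln stood at 552, 649 and 621 CPM in the 3 samples on 2-kPa elastic gels. It stood at 282, 305 and 402 CPM on 20-kPa elastic gels. The 3 samples on the soft elastic gel thus lay above all samples on the stiff one. On 2-kPa viscoelastic gels the values were 279.8, 520.0 and 353 CPM, and on 20-kPa viscoelastic gels 537, 345 and 492 CPM, so that these groups overlapped each other and spread more widely. Eln fell by 0.88 on the log2 scale, or by 1.84-fold, with stiffness on elastic gels (SE 0.20, edgeR adjusted p = 0.00886) and remained called without any single sample (adjusted p up to 0.0376). On viscoelastic gels the difference was 0.25 (SE 0.20, adjusted p = 0.525). The interaction of 1.13 (SE 0.28, adjusted p = 0.0229) was the difference of these stiffness effects.

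On 2-kPa gels Eln fell by 0.66 on the log2 scale with viscoelasticity (SE 0.20, edgeR adjusted p = 0.0288), with no overlap of the groups. At 20 kPa the difference was 0.47 in the other direction (SE 0.20, adjusted p = 0.0781) and not called. The first call was close to the threshold: it was lost with DESeq2 (adjusted p = 0.0506), with a correction for gene length (0.0534) and without 2-kPa elastic replicate 1 (0.0530), 2 (0.0902) or 3 (0.0636) or 2-kPa viscoelastic replicate 1 (0.0905) or 3 (0.0984). The interaction was lost without 2-kPa elastic replicate 2 (1.08, adjusted p = 0.0513), 20-kPa elastic replicate 1 (1.01, 0.0509) or 2 (1.08, 0.0564) or 20-kPa viscoelastic replicate 1 (1.00, 0.0607) or 3 (1.08, 0.0578). Conversely, the difference at 20 kPa was called without a filter on low counts (adjusted p = 0.00335), in a fit of those groups alone (0.0474), with the length correction (0.0481) and without 20-kPa elastic replicate 3 (0.0425), 2-kPa viscoelastic replicate 1 (0.0433) or 2 (0.0264) or 20-kPa viscoelastic replicate 2 (0.0255).

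Eln varied most among replicates of the 10 genes: the SD of its log2 CPM within groups was 0.32, against a median of 0.11 over all tested genes. Its deviations from the group means correlated with those of the 4 abundant cartilage genes at 0.86 (Acan), 0.77 (Col2a1), 0.46 (Cnmd) and 0.32 (Sox9), and with those of the 8 fibroblast markers at values from −0.54 (Pdgfra) to 0.60 (Vim). Over the 12 samples its level correlated with Acan, the highest of these genes, with r = 0.84 and Spearman's rho of 0.95. Acan, the core protein of the main cartilage proteoglycan, fell on viscoelastic gels at 2 kPa (−0.47 on the log2 scale, edgeR adjusted p = 0.00847) and from 2 to 20 kPa on elastic gels (−0.50, adjusted p = 0.00767), as Eln did. Cnmd, which encodes the cartilage protein chondromodulin, fell from 2 to 20 kPa on elastic gels (−0.53, adjusted p = 0.0274) and rose with viscoelasticity at 20 kPa (0.94, adjusted p = 0.000384). Col2a1 and Sox9 were not called in these comparisons. The part of cartilage gene expression in the differences of Eln was not tested. These correlations are descriptions over 12 samples that share gel groups and libraries.

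**Figure D3:**
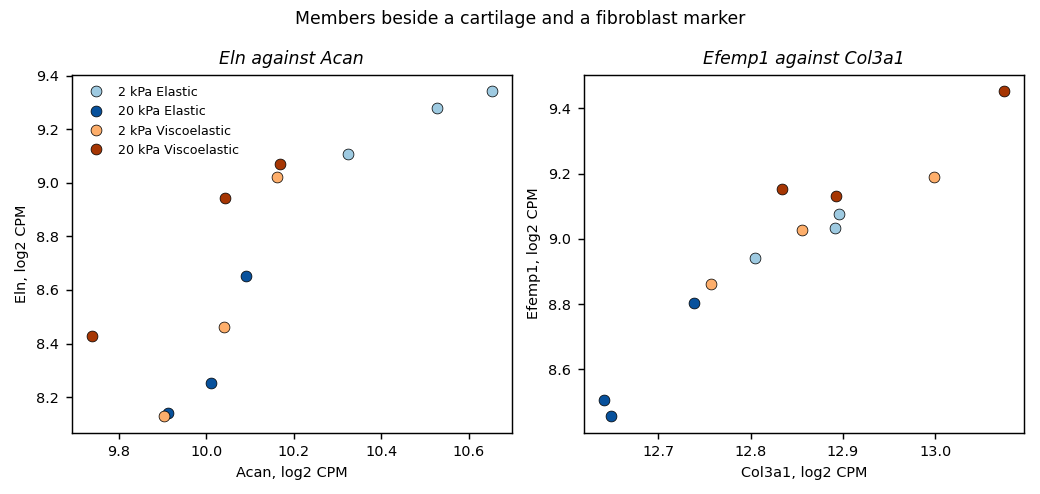
Left, log2 CPM of Eln against the cartilage gene Acan. Right, log2 CPM of Efemp1 against the fibroblast gene Col3a1. Each point is 1 of the 12 samples, coloured by gel group. Pearson's r over the 12 samples was 0.84 for Eln with Acan and 0.95 for Efemp1 with Col3a1, the highest in each case among the cartilage and fibroblast markers. Efemp1 also correlated with the cartilage gene Cnmd, not shown, at 0.89.

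The 3 tested genes whose log2 CPM was most like that of Eln over the 12 samples were Serpinb5 (r = 0.95), Meltf (r = 0.94) and Adamts17 (r = 0.94). They were chosen for this likeness, group differences included, out of all tested genes. Their differences between groups are thus not independent of that choice. Adamts17, a secreted metalloprotease linked to microfibrils, fell by 1.03 with viscoelasticity at 2 kPa and by 0.98 from 2 to 20 kPa on elastic gels on the log2 scale (edgeR adjusted p = 0.00896 and 0.0156, the latter up to 0.0572 without 1 sample), at group means of only 0.508 to 1.04 CPM. Meltf, which encodes melanotransferrin, fell by 0.75 and 0.79 in these comparisons (adjusted p = 0.00143 and 0.00128). Serpinb5, at only 0.514 to 1.20 CPM over the 12 samples, was called in none of the 6 comparisons (adjusted p from 0.0941 to 0.807).

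Fbn1 (ENSMUSG00000027204.13, chr2:125300594-125507993, minus strand) encodes fibrillin-1, the main scaffold protein of microfibrils after birth. Fbn1 stood at 1185, 1217 and 1114 CPM on 2-kPa elastic and at 1085, 1064 and 1261 CPM on 20-kPa elastic gels. It stood at 1039, 837 and 993 CPM on 2-kPa viscoelastic and at 955, 883 and 907 CPM on 20-kPa viscoelastic gels. At each stiffness every viscoelastic sample lay below every elastic one. Fbn1 fell by 0.29 with viscoelasticity at 2 kPa (SE 0.09, edgeR adjusted p = 0.0303) and by 0.31 at 20 kPa (SE 0.09, adjusted p = 0.0143) on the log2 scale. The mean effect was −0.30 (SE 0.06, adjusted p = 0.00161). Stiffness differences were −0.04 on elastic and −0.06 on viscoelastic gels (95% intervals −0.23 to 0.15 and −0.25 to 0.13) and were not called.

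Fbn2 (ENSMUSG00000024598.9, on chromosome 18, minus strand) encodes fibrillin-2, the fibrillin best known from development. Fbn2 stood at 779, 787 and 672 CPM on 2-kPa elastic and at 598, 575 and 624 CPM on 20-kPa elastic gels. It stood at 542, 547 and 509 CPM on 2-kPa viscoelastic and at 487, 513 and 478 CPM on 20-kPa viscoelastic gels. All 6 viscoelastic samples lay below all 6 elastic ones, and within the elastic gels the stiff ones lay below the soft ones. Fbn2 fell by 0.49 with viscoelasticity at 2 kPa (SE 0.07, edgeR adjusted p = 0.000415) and by 0.28 at 20 kPa (SE 0.07, adjusted p = 0.00726) on the log2 scale. With stiffness it fell by 0.32 on elastic gels (adjusted p = 0.00846), and the difference on viscoelastic gels was −0.11 (adjusted p = 0.414). The interaction of 0.20 was not called (adjusted p = 0.245). The fall with viscoelasticity at 2 kPa and the fall with stiffness on elastic gels held in every alternative analysis. Groups held 92.2% of the variance of the log2 CPM of Fbn2, the largest share among the 10 genes.

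Fbn1 and Fbn2 have the longest exon unions of the family, 12128 and 13215 bp, and a correction for gene length ended the calls of Fbn1 at both stiffnesses and of Fbn2 at 20 kPa. With it, the viscoelastic effect on Fbn1 was −0.18 at 2 kPa (adjusted p = 0.120) and −0.19 at 20 kPa (adjusted p = 0.0907), and that on Fbn2 at 20 kPa was −0.15 (adjusted p = 0.140). The mean effects over both stiffnesses, −0.30 for Fbn1 and −0.38 for Fbn2 in the main fit, stayed called with the length correction and in every other alternative. The call of Fbn1 at 2 kPa was also lost in a fit of those groups alone (adjusted p = 0.0663) and without 2-kPa elastic replicate 1 (0.0937) or 2 (0.106) or 2-kPa viscoelastic replicate 2 (0.0978) or 3 (0.0530), and that at 20 kPa without 20-kPa elastic replicate 3 (0.0791) or 20-kPa viscoelastic replicate 2 (0.0503). A further 2442 bp, or 20.1%, of the exons of Fbn1 overlap Gm9913 on the other strand. The strand setting of the counts is not stated, so reads of the overlapping genes cannot be told apart. Smaller overlaps with genes on the other strand exist for Eln (267 bp), Efemp2 (173 bp), Fbn2 (129 bp) and Mfap4 (89 bp).

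Fbln1 (ENSMUSG00000006369.14, chr15:85205949-85286535, plus strand) encodes fibulin-1, which is found in basement membranes and within the elastin core. Fbln1 stood at 46.5, 50.7 and 46.9 CPM on 2-kPa elastic and at 53.0, 67.8 and 61.6 CPM on 2-kPa viscoelastic gels, with no overlap. Fbln1 rose by 0.34 on the log2 scale with viscoelasticity at 2 kPa (SE 0.11, edgeR adjusted p = 0.0349). This call was lost without 2-kPa elastic replicate 1 (adjusted p = 0.122), 2 (0.0551) or 3 (0.0865) or 2-kPa viscoelastic replicate 2 (0.125) or 3 (0.0889). At 20 kPa the samples overlapped, at 63.7, 55.3 and 52.1 CPM on elastic and 55.2, 66.8 and 50.6 CPM on viscoelastic gels, and the difference was 0.01 (95% interval −0.21 to 0.24). Between the elastic gels of 2 and 20 kPa the groups did not overlap, and the difference of 0.25 was not called (adjusted p = 0.136), except without a filter on low counts (0.0458) and in a fit of those groups alone (0.0414).

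Fbln2 (ENSMUSG00000064080.12, chr6:91212455-91272540, plus strand) encodes fibulin-2, which lies where elastin meets the microfibrils. Fbln2 stood at 2266, 2537 and 2229 CPM on 2-kPa elastic and at 2832, 2808 and 3028 CPM on 20-kPa elastic gels. The values were 2668, 2629 and 2528 CPM on 2-kPa viscoelastic gels and 2105, 2024 and 1933 CPM on 20-kPa viscoelastic gels. The stiff gels thus held the highest samples of the 12 when elastic and the lowest when viscoelastic. Fbln2 rose by 0.30 from 2 to 20 kPa on elastic gels (SE 0.08, edgeR adjusted p = 0.0156) and fell by 0.37 on viscoelastic gels (SE 0.08, adjusted p = 0.0270) on the log2 scale. The interaction was −0.67 (SE 0.11, adjusted p = 0.00153). With viscoelasticity Fbln2 fell by 0.52 at 20 kPa (SE 0.08, adjusted p = 0.000241), whereas at 2 kPa the groups overlapped and the difference was 0.15 (95% interval −0.01 to 0.32, adjusted p = 0.163). The spread of Fbln2 within groups, an SD of 0.07 on the log2 scale, was the lowest of the family.

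The interaction of Fbln2 and its fall with viscoelasticity at 20 kPa were called in every alternative analysis. The rise with stiffness on elastic gels was lost without 2-kPa elastic replicate 1 (adjusted p = 0.0694) or 3 (0.0702) or 20-kPa elastic replicate 3 (0.0664). The fall with stiffness on viscoelastic gels held in 14 of 20 alternatives and was lost, among others, in a fit of those groups alone (0.0919) and without 2-kPa viscoelastic replicate 1 (0.0547) or 20-kPa viscoelastic replicate 1 (0.0727) or 3 (0.139).

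Efemp1 encodes fibulin-3, Efemp2 fibulin-4 and Fbln5 fibulin-5, short fibulins of similar build. Fibulin-4 and fibulin-5 bind tropoelastin and lysyl oxidases and are needed for elastic fibre assembly in mice, while fibulin-3 is best known from fascia and the eye. Of these 3 genes only Efemp1 was called in any comparison, while the deviations of all 3 within groups went together. Their r was 0.82 for Efemp1 with Efemp2, 0.86 for Efemp1 with Fbln5 and 0.89 for Efemp2 with Fbln5. Fbln5, not called either, varied with both others at least as closely as these did with each other, and its window is not shown. The bases upstream of an annotated start of Efemp1 and of Efemp2 are shown as an example from these paralogs. They come from RefSeq on GRCm38.p6, at chr11:28852955-28853203 and chr19:5473696-5473945, plus strand, 5′ to 3′. Capitals mark GC boxes, here the letters GGGCGG or their complement on the other strand, CCGCCC, which 32.7% of 32851 promoter windows of 250 bases hold.
Efemp1: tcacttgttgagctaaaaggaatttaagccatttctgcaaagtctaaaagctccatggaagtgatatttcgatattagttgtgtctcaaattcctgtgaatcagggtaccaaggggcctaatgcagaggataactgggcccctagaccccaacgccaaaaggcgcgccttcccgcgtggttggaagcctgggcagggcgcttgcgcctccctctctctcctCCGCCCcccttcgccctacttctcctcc
Efemp2: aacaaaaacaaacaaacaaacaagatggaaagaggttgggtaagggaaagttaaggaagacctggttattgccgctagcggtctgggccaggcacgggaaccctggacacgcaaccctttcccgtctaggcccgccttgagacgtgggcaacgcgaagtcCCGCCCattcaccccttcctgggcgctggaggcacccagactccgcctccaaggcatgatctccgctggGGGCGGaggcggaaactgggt
The window of Efemp1 held 1 GC box and the printed window of Efemp2 held 2. Overlapping windows of further annotated starts of Efemp2, chr19:5474440-5474689 and chr19:5474485-5474734, reach into exons and are not printed. These held 5 GC boxes each. On both strands, neither printed window held the core letters bound by TEAD factors, GGAATG, which 12.6% of all windows hold. The AP-1 letters TGACTCA, held by 4.46%, were absent from both as well. So were the E-box letters CACGTG, held by 6.02%, and the core promoter letters TATAAA, held by 12.4%. Of the 10 genes, 6 matched the promoter table.

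Efemp1 (ENSMUSG00000020467.15, chr11:28853204-28926743, plus strand) stood at 492, 524 and 539 CPM on 2-kPa elastic and at 447, 363 and 351 CPM on 20-kPa elastic gels. The values were 465, 584 and 522 CPM on 2-kPa viscoelastic gels and 561, 701 and 569 CPM on 20-kPa viscoelastic gels. The 3 samples on 20-kPa elastic gels were the lowest of the 12. Efemp1 rose by 0.66 on the log2 scale with viscoelasticity at 20 kPa (SE 0.11, edgeR adjusted p = 0.000486), which is 57.7% more. At 2 kPa the difference was 0.02 (95% interval −0.22 to 0.25, adjusted p = 0.939). Efemp1 fell by 0.42 from 2 to 20 kPa on elastic gels (SE 0.11, adjusted p = 0.0178), and the difference on viscoelastic gels was 0.22 (adjusted p = 0.284). The interaction was 0.64 (SE 0.15, adjusted p = 0.0191). The fall on elastic gels was lost without 2-kPa elastic replicate 2 (adjusted p = 0.0537) or 3 (0.0622) or 20-kPa elastic replicate 2 (0.0715) or 3 (0.0866), and the interaction without 20-kPa elastic replicate 2 (0.60, adjusted p = 0.0514).

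Over the 12 samples Efemp1 correlated with the 8 fibroblast markers at values from −0.65 (Thy1) to 0.95 (Col3a1, the collagen III gene, with Spearman's rho of 0.92). With the abundant cartilage genes it correlated at 0.89 (Cnmd, with Spearman's rho of 0.92), 0.56 (Col2a1), 0.39 (Sox9) and 0.01 (Acan). Cnmd also rose with viscoelasticity at 20 kPa, as given above. Col3a1 and Dcn, the gene of the small proteoglycan decorin, also rose with viscoelasticity at 20 kPa (0.26 and 0.75 on the log2 scale, edgeR adjusted p = 0.0419 and 0.00175). Of the 8 fibroblast markers 3 rose and 1 fell in that comparison, in which 17.4% of all tested genes rose and 16.1% fell. Thy1 and Pdgfrb had lower means on 20-kPa viscoelastic than elastic gels, 194 against 280 and 269 against 290 CPM. Col3a1 had the highest of these correlations, which include the group differences, so its rise is not independent of that choice. The sum of the 8 markers lay at 23166 to 25025 CPM on 20-kPa elastic and at 26187 to 28106 CPM on 20-kPa viscoelastic gels. The part of fibroblast or cartilage gene expression in the rise of Efemp1 was not tested.

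Efemp2 (ENSMUSG00000024909.15, chr19:5473954-5482517, plus strand) had the narrowest range of the 10 genes over the 12 samples, between 499 and 625 CPM. Its group means were 543 ± 18.5, 519 ± 26.6, 568 ± 51.4 and 519.8 ± 18.7 CPM (SD, n = 3) on 2-kPa elastic, 20-kPa elastic, 2-kPa viscoelastic and 20-kPa viscoelastic gels. The 95% intervals of its log2 differences with viscoelasticity ran from −0.09 to 0.22 at 2 kPa and from −0.15 to 0.16 at 20 kPa.

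Fbln5 (ENSMUSG00000021186.9, chr12:101746565-101819055, minus strand) lay between 1124 and 1496 CPM. Its group means, in the same order, were 1436 ± 64.2, 1245 ± 128, 1348 ± 106 and 1216 ± 55.1 CPM (SD, n = 3). The stiffness differences of −0.21 on elastic and −0.15 on viscoelastic gels on the log2 scale were not called (edgeR adjusted p = 0.122 and 0.364). On viscoelastic gels all stiff samples of Fbln5 nevertheless lay below all soft ones, as 22.3% of the tested genes did in either direction.

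Mfap4 (ENSMUSG00000042436.12, chr11:61485431-61488900, plus strand) encodes a fibrinogen-related protein that binds tropoelastin and fibrillin-1. Mfap4 was the lowest of the family, with 157 to 350 counts per sample. It stood at 4.30, 4.31 and 3.87 CPM on 20-kPa elastic and at 5.90, 8.24 and 5.14 CPM on 20-kPa viscoelastic gels, with no overlap. Mfap4 rose by 0.63 on the log2 scale with viscoelasticity at 20 kPa (SE 0.19, edgeR adjusted p = 0.0185). This call was lost with the length correction (adjusted p = 0.0623) and without 20-kPa elastic replicate 3 (0.0661) or 20-kPa viscoelastic replicate 2, the highest of the 12 samples, without which the difference was 0.41 (0.107). At 2 kPa the values were 4.14, 4.33 and 4.42 CPM on elastic and 3.69, 6.32 and 4.15 CPM on viscoelastic gels, and the difference of 0.13 was not called (95% interval −0.28 to 0.54). Between the viscoelastic gels the difference was 0.45 (adjusted p = 0.204), and it was called without 2-kPa viscoelastic replicate 2 (0.71, adjusted p = 0.0493).

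Mfap5 (ENSMUSG00000030116.14, chr6:122505845-122529290, plus strand) encodes microfibril-associated glycoprotein 2, which binds fibrillin. Mfap5 stood at 7.21, 9.40 and 7.72 CPM on 2-kPa elastic gels, below all 9 other samples. It stood at 16.9, 14.6 and 15.3 CPM on 20-kPa elastic, at 17.3, 23.8 and 19.7 CPM on 2-kPa viscoelastic and at 13.5, 19.7 and 17.3 CPM on 20-kPa viscoelastic gels. These were 281 to 990 counts. The 20-kPa groups overlapped. Mfap5 rose by 1.32 on the log2 scale with viscoelasticity at 2 kPa (SE 0.14, edgeR adjusted p = 4.53e-05), or 2.50-fold, and by 0.94 from 2 to 20 kPa on elastic gels (SE 0.14, adjusted p = 0.000726), or 1.92-fold. At 20 kPa the viscoelastic difference was 0.11 (95% interval −0.18 to 0.40, adjusted p = 0.567), and on viscoelastic gels the stiffness difference was −0.27 (adjusted p = 0.302). The interaction was −1.21 (SE 0.20, adjusted p = 0.00175). The calls of Mfap5 held in every alternative analysis.

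**Figure D4:**
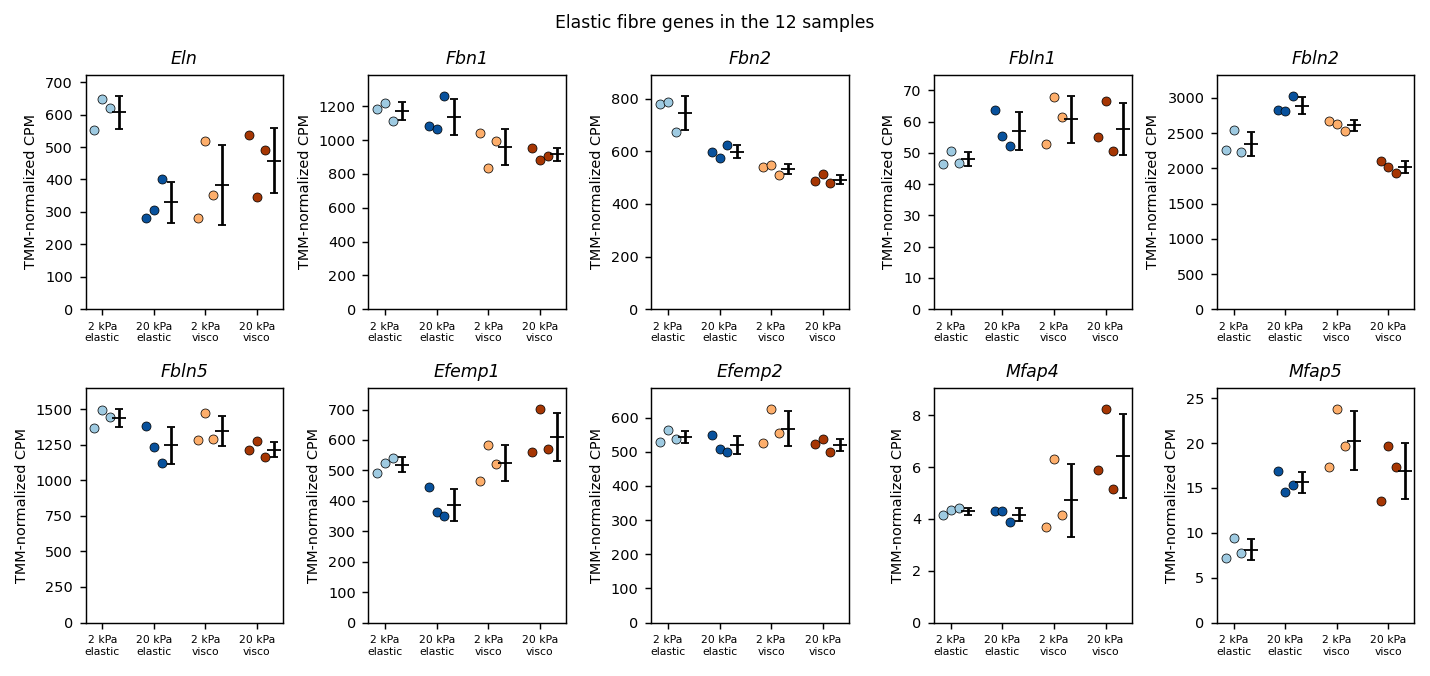
TMM-normalized CPM of each gene (1 panel per gene, axes from 0) in the 4 gel groups, with 1 point per sample and the mean ± SD of 3 samples beside it. Eln is highest and Mfap5 lowest on 2-kPa elastic gels, Fbln2 is lowest on 20-kPa viscoelastic gels, Efemp1 is lowest on 20-kPa elastic gels, and the viscoelastic points of Fbn2 lie below its elastic points.

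Groups that did not overlap were counted too. This held for 5 genes with viscoelasticity at 2 kPa and 5 at 20 kPa, where 36.3% and 49.9% of all tested genes did not overlap, and for 6 genes with stiffness on elastic and 2 on viscoelastic gels, where 35.6% and 22.3% did not.

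Within groups, 6 of the 10 genes varied together. The deviations of log2 CPM from the group means of Fbln1, Fbln5, Efemp1, Efemp2, Mfap4 and Mfap5 correlated at 0.62 to 0.93 over their 15 pairs. Those of Fbn1 correlated with theirs at −0.73 to −0.48, and those of Eln at −0.09 to 0.35. Over the 12 samples, with the group differences included, the 15 pairs ranged from −0.32 to 0.82. With the deviations of the 8 fibroblast markers theirs correlated unevenly, from −0.20 to 0.23 with Vim and from 0.17 to 0.57 with Pdgfrb up to 0.80 to 0.94 with Col1a2. The 6 genes were all highest, within both viscoelastic groups, in replicate 2. The 6 genes were grouped after their correlations were seen, and the points share libraries and scaling, so this is a description.

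**Figure D5:**
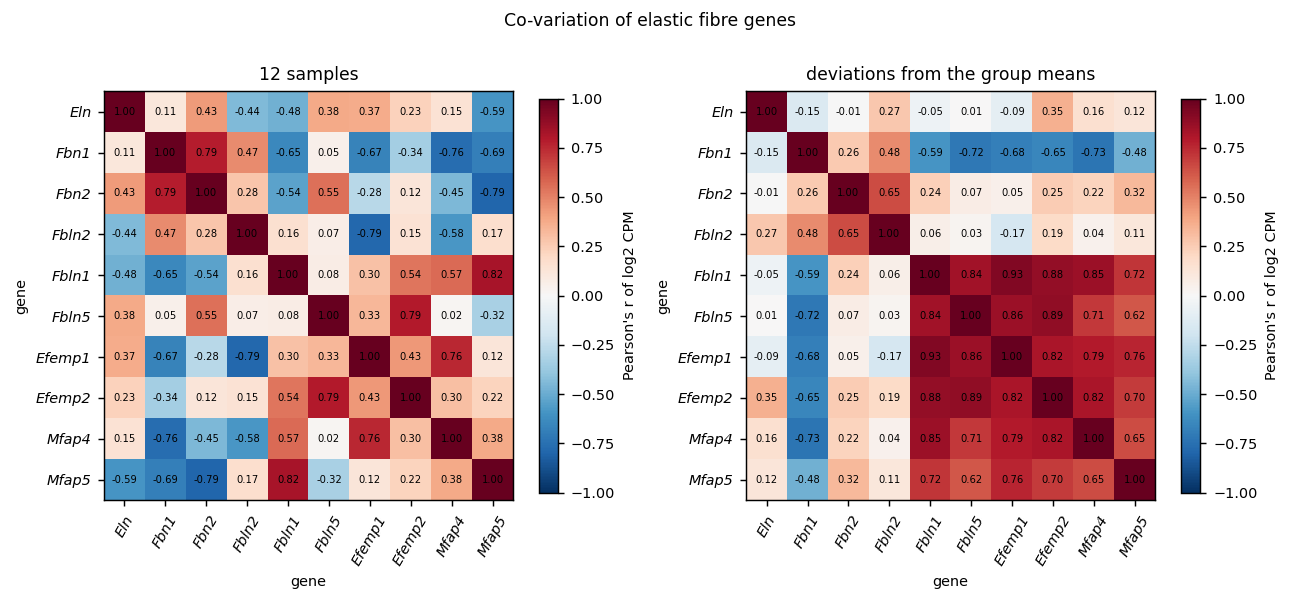
Pearson's r of log2 CPM between the genes over the 12 samples (left) and of the deviations from the group means (right), from −1 in blue to 1 in red, with r in each cell. On the right, the 6 genes from Fbln1 to Mfap5 form a red block of 0.62 to 0.93, and Fbn1 is blue against them.

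The partners of these proteins in assembly were read from a list of 16 genes, all tested. With viscoelasticity at 2 kPa, 1 rose and 9 fell, with a median log2 fold change of −0.34, where 8.77% of all tested genes rose and 11.1% fell. Ltbp4, a latent TGF-beta binding protein needed for elastic fibre assembly, fell by 0.75 (edgeR adjusted p = 8.32e-06), Fbln7 by 2.00 (adjusted p = 0.000563) and Tnxb, the gene of tenascin-X, by 0.83 (adjusted p = 0.00094), while Adamtsl4, which promotes fibrillin-1 deposition, rose by 0.47 (adjusted p = 0.000166). Fbln7 and Tnxb were rare, with group means of 1.41 to 5.62 and of 4.72 to 8.85 CPM. At 20 kPa, 1 rose and 6 fell (median −0.17), where 17.4% of all tested genes rose and 16.1% fell. Mfap2, the microfibril-associated glycoprotein 1 gene, rose by 1.04 (adjusted p = 9.41e-05), and Emilin2 fell by 0.64 (adjusted p = 0.000194), Ltbp1 by 0.52 (adjusted p = 0.000378) and Vcan, the gene of versican, by 0.58 (adjusted p = 0.000529). From 2 to 20 kPa on elastic gels, 2 rose and 5 fell (median −0.37), where 6.81% of all tested genes rose and 7.14% fell. Ltbp4 fell by 0.56 (adjusted p = 6.72e-05), Fbln7 by 1.83 (adjusted p = 0.00116) and Ltbp3 by 0.41 (adjusted p = 0.00166). The 2 that rose were Emilin2 (0.42, adjusted p = 0.00629) and Adamtsl4 (0.28, adjusted p = 0.00744). On viscoelastic gels 1 rose with stiffness, Mfap2 (0.58, adjusted p = 0.0270), and 1 fell, Adamtsl4 (−0.38, adjusted p = 0.0116), and the median was −0.06, where 1.58% of all tested genes rose and 0.695% fell. The call of Mfap2 held in 12 of 20 alternatives (adjusted p up to 0.105), and that of Adamtsl4 was lost without 20-kPa viscoelastic replicate 1 or 3 (adjusted p up to 0.0801). The median of all tested genes was within 0.02 of 0 in each of these comparisons. With the length correction Ltbp1 at 2 kPa, Tnxb at 20 kPa and Mfap2 on viscoelastic gels were no longer called (adjusted p = 0.145, 0.0652 and 0.0579).

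Of the 16 partners, 6 had a called interaction, 4 positive and 2 negative, against 7.56% of all tested genes (4.45% positive and 3.12% negative). Ltbp4 (0.60, edgeR adjusted p = 0.000848), Mfap2 (0.94, adjusted p = 0.00354) and Fbln7 (2.15, adjusted p = 0.00967) had the lowest p among the positive ones, which also held Adamts17 (1.48, adjusted p = 0.0202; up to 0.0601 in the alternatives). Adamtsl4 (−0.66, adjusted p = 0.000378) and Emilin2 (−0.65, adjusted p = 0.00641) were negative. Mfap2 and Mfap5, the related microfibril-associated glycoproteins, thus had interactions of opposite sign.

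The 5 lysyl oxidase genes, whose enzymes crosslink elastin and collagen, were all tested. With viscoelasticity at 20 kPa 4 of them fell, as 16.1% of all tested genes did. Loxl4 fell by 0.36 (edgeR adjusted p = 0.00504), Loxl3 by 0.35 (adjusted p = 0.00726), Loxl2 by 0.26 (adjusted p = 0.0211) and Loxl1, the enzyme most tied to elastin, by 0.31 (adjusted p = 0.0221). The calls of Loxl1 and Loxl2 were lost without 20-kPa elastic replicate 1 or 3 or 20-kPa viscoelastic replicate 1 or 3 (adjusted p up to 0.110 and 0.0927). At 2 kPa, where 19.9% of all tested genes were called, only Loxl2 was called, and it rose by 0.39 (adjusted p = 0.00370). Lox stayed uncalled there in 13 of 20 alternatives and was called higher in the others, among them the length correction (0.41, adjusted p = 0.0492). From 2 to 20 kPa on elastic gels Loxl2 rose by 0.42 (adjusted p = 0.00313), the only call of the list, and on viscoelastic gels none was called, against 14.0% and 2.28% of all tested genes. Lox was the most abundant, with group means of 4309 to 5709 CPM. Its interaction was −0.69 (adjusted p = 0.0428), which was called in only 8 of 19 alternatives (adjusted p up to 0.0997), and that of Loxl2 was −0.65 (adjusted p = 0.00263). Of all tested genes 7.56% had a called interaction.

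Of 11 genes of elastin breakdown and the elastin receptor complex, 9 were tested, Mmp12 and Ctss having too few counts. With viscoelasticity at 2 kPa 4 fell and none rose, where 11.1% of all tested genes fell and 8.77% rose. The fall was led by the gelatinase genes Mmp9 (−2.16 on the log2 scale, edgeR adjusted p = 0.00144) and Mmp2 (−0.32, adjusted p = 0.00924) and by Mmp14 (−0.38, adjusted p = 0.0146). Without 2-kPa elastic replicate 1 neither Mmp2 (adjusted p = 0.0570) nor Mmp14 (0.0814) was called. At 20 kPa, where 17.4% of all tested genes rose and 16.1% fell, 1 of the 9 rose and 1 fell. Mmp9 fell by 1.19 (adjusted p = 0.0331), a call that held in 14 of 20 alternatives and was lost without any 1 of the 3 viscoelastic samples at 20 kPa or without 20-kPa elastic replicate 3, where the difference was −0.48 (adjusted p = 0.281). The pancreatic-type elastase gene Cela1 rose by 0.39 (adjusted p = 0.0323), a call that was lost in 8 of 20 alternatives (adjusted p up to 0.173), among them the length correction (0.146) and leaving out any 1 elastic sample at 20 kPa or 20-kPa viscoelastic replicate 1 or 2. From 2 to 20 kPa on elastic gels 4 fell, as 7.14% of all tested genes did, among them Mmp2 (−0.35, adjusted p = 0.00760), Cela1 (−0.54, adjusted p = 0.0136) and the sialidase gene Neu1 of the receptor complex (−0.39, adjusted p = 0.0175). Without 2-kPa elastic replicate 1 neither Cela1 nor Neu1 was called (adjusted p = 0.0665 and 0.0880). Cela1 was also lost without 20-kPa elastic replicate 3, and Neu1 without 20-kPa elastic replicate 2. None was called with stiffness on viscoelastic gels, against 2.28% of all tested genes. Mmp9 was rare, with group means of 1.12 to 4.99 CPM.

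The 6 integrin subunits that bind fibrillin, fibulin or microfibril-associated proteins were all tested. With viscoelasticity 3 fell at 2 kPa and 4 at 20 kPa, where 11.1% and 16.1% of all tested genes fell. None rose, and none was called with stiffness on elastic or viscoelastic gels, against 14.0% and 2.28%. Itgb3 fell by 1.19 at 2 kPa and by 1.10 at 20 kPa (edgeR adjusted p = 0.000369 and 0.000316). Itgav fell by 0.45 and 0.61 (adjusted p = 0.00866 and 0.00072), and Itga5 by 0.50 and 0.59 (adjusted p = 0.00521 and 0.000965). Itgb1 fell by 0.34 at 20 kPa (adjusted p = 0.00230). These lists were read from the same fit, and no test of a list as a whole was made.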

How the data were processed

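Reads from poly(A) RNA of 12 samples were trimmed with Trimmomatic, aligned to mm10 with STAR and assigned to GENCODE genes with featureCounts by the authors, who deposited the raw counts without normalization. The annotation release, the strand setting and the treatment of multi-mapping reads are not given in the sources used here. Counts were tested here with edgeR 4.0.16 (R 4.3.3): filterByExpr (minimum count 10, minimum total 15), TMM scaling, 1 coefficient per group over all 12 samples, a quasi-likelihood F-test, and Benjamini-Hochberg adjustment over 14542 genes. Log2 CPM used a prior count of 2. The SE of a difference was derived from its log2 fold change and the F statistic of its test. The 95% intervals were built from that SE and the t distribution. Positions and exon lengths came from a GENCODE annotation of mm10 that matched 94.8% of the tested genes. It may not be the release the authors used.

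The 10 genes, the pathway lists and the marker lists were chosen with earlier results of these data known. Of each pathway list, up to 3 called genes with the lowest adjusted p in each direction were named in a comparison, and other genes, chosen after seeing their values, only to spell out counts of at most 5. The alternatives were total counts alone, DESeq2's size factors, no filter, DESeq2 1.42.0, only the groups compared, the replicate number as a block, a correction for gene length, the last 2 together, and leaving out each sample. Replicate numbers were not taken to pair samples across groups, and the labels do not say whether they do. The ATAC-seq and imaging of the study were not analysed here, and protein sequences were not used here.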

Additional observations from a re-analysis of the deposited data

Results flagged for a closer look

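For 4 of the 10 genes the effect of stiffness differed between elastic and viscoelastic gels by the edgeR interaction test. Eln had an interaction of 1.13 on the log2 scale (adjusted p = 0.0229): it fell with stiffness on elastic gels, and its difference of 0.25 on viscoelastic gels was not called. Fbln2 had −0.67 (adjusted p = 0.00153), with a rise on elastic and a fall on viscoelastic gels. Efemp1 had 0.64 (adjusted p = 0.0191), with a called fall on elastic gels and a difference of 0.22 on viscoelastic gels that was not called. Mfap5 had −1.21 (adjusted p = 0.00175), with a called rise on elastic gels and a difference of −0.27 on viscoelastic gels that was not called. The interaction of Fbln2 and that of Mfap5 were called in all alternative analyses. That of Eln was lost without any 1 of 5 samples, and that of Efemp1 without 1 sample, as given above. Among all tested genes 7.56% had a called interaction.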

How the results depend on the processing

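For the 10 genes, 1180 values were computed under alternatives, of which 1106 kept their direction or stayed uncalled as before, 59 lost a call, 15 gained one and 0 reversed a called direction. For 36 tested pathway genes these were 4248, 4029, 133, 86 and 0. With the length correction, with or without the replicate block, 3 of the 10 genes were called for viscoelasticity at 2 kPa and 3 at 20 kPa, and of all tested genes 2634 and 4119 with the length correction and 2280 and 3757 with both, from 2892 and 4866. For stiffness on viscoelastic gels 0 of the 10 were called in the fit of those groups alone, with the replicate block, and with the block and length correction. The whole-table count of that comparison, 331, was 653 with no filter, 757 with DESeq2, 38 in the fit of those groups alone, 154 with the replicate block, 163 with the length correction and 80 with both. Leaving out 1 sample gave 2 to 5 of the 10 genes for viscoelasticity at 2 kPa, 4 to 6 at 20 kPa, 3 to 5 for stiffness on elastic and 0 to 2 on viscoelastic gels, 5 to 7 for the mean effect and 2 to 4 for the interaction. The whole-table counts were then 1545 to 3085, 3177 to 5381, 1063 to 2369, 9 to 351, 4914 to 6061 and 670 to 1182. In the mean effect, Fbln2 and Mfap4 were not called with the length correction (adjusted p = 0.0728 and 0.131). Mfap4 (0.38) was also lost without any 1 of 2-kPa elastic replicates 1 to 3, 20-kPa elastic replicates 2 and 3, 20-kPa viscoelastic replicate 2 and 2-kPa viscoelastic replicate 2 (adjusted p = 0.0504 to 0.0957), without the last of which it was 0.25. The cause was not tested, other than that fits with fewer samples have less information. Samples of the same replicate number deviated from their group means with a mean correlation of −0.0248 (−0.200 to 0.308 over 18 pairs), so the numbers were not taken as pairs. The replicate block changed the call of 1 of the 10 genes, Fbln2 with stiffness on viscoelastic gels (adjusted p = 0.0558, and 0.0753 with the length correction too). Depth limits Mfap4 most, at 157 to 350 counts per sample.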
